A study of Mus musculus with 9 samples.

Results

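A set of 10 genes of cellular redox control, out of 53679 genes in the deposited count table, was followed in CD8+ T cells of C57BL/6 mice. They were chosen as named members of the glutathione, thioredoxin and NRF2 systems: Nfe2l2, Keap1, Gclc, Gclm, Gss, Gsr, Txnrd1, Srxn1, Txnip and Hmox1. All 10 symbols matched 1 Ensembl gene each, and all 10 passed the filter on low counts. The study set 3 groups side by side after 3 days of activation in culture. The groups were Tc0 cells activated with coenzyme A (CoA), untreated Tc22 cells and untreated Tc0 cells. Tc22 is the usual name of CD8+ T cells that secrete interleukin-22, and Tc0 that of CD8+ T cells that no cytokine mix has polarised. CoA carries acyl groups in metabolism and is made from vitamin B5. Each group held 3 libraries, 1 from each of mice 715, 725 and 728. The labels call the Tc22 cells and the plain Tc0 cells untreated, while the protocol names a vehicle. No genetic change is named for any group, and the age of the mice and the cytokines of the Tc22 culture are not stated in the sources used here.

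NRF2, encoded by Nfe2l2, is a transcription factor that KEAP1 holds in the cytosol and passes to a CUL3 ubiquitin ligase for degradation. Oxidants and electrophiles modify cysteines of KEAP1, and NRF2 then accumulates, pairs with small MAF proteins and binds antioxidant response elements in the promoters of its targets. Those targets include enzymes that make glutathione and keep thioredoxin reduced, on which activated T cells depend for growth. NRF2 is controlled mainly at the level of the protein, so the transcript of Nfe2l2 does not report its activity.

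Total counts per library ran from 21841034 to 36254631. Levels are given in CPM, a gene's counts scaled to a common library size, here with TMM normalisation for differences in composition. Il22 stood at 12.96 to 71.53 CPM in CoA-treated Tc0, at 4.92 to 7.47 CPM in Tc22 and at 0.661 to 1.35 CPM in Tc0 libraries. The CD8 gene Cd8a was at 646.5 to 860.2 CPM in CoA-treated Tc0, 698.2 to 749.4 CPM in Tc22 and 778.2 to 802.9 CPM in Tc0 libraries. Markers of CD8 T cells summed to 1865 to 2351 CPM in CoA-treated Tc0, 2288 to 2840 CPM in Tc22 and 2298 to 2967 CPM in Tc0 libraries. By the edgeR test given below 5 of 8 were lower with CoA (Cd3e, Cd3d, Cd3g, Trac and Cd2), where 12.0% of all genes fell. Cd8a, Cd8b1 and Lck did not pass, with log2 fold changes of -0.06, 0.005 and 0.04. The Tc0 library of mouse 728 stood apart from the other Tc0 libraries. Histone genes took 0.668% of its counts, against 0.140% in that of mouse 715 and 0.188% in that of mouse 725. Mitochondrial genes took 2.003%, against 3.97% and 3.33%. Mouse 728 had the highest histone share in the other groups too (0.366% with CoA, 0.493% in Tc22). Tc22 libraries held 0.252% to 0.493% of histone and 2.007% to 3.33% of mitochondrial counts. Results are given with and without it where that changes a call.

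**Figure D1:**
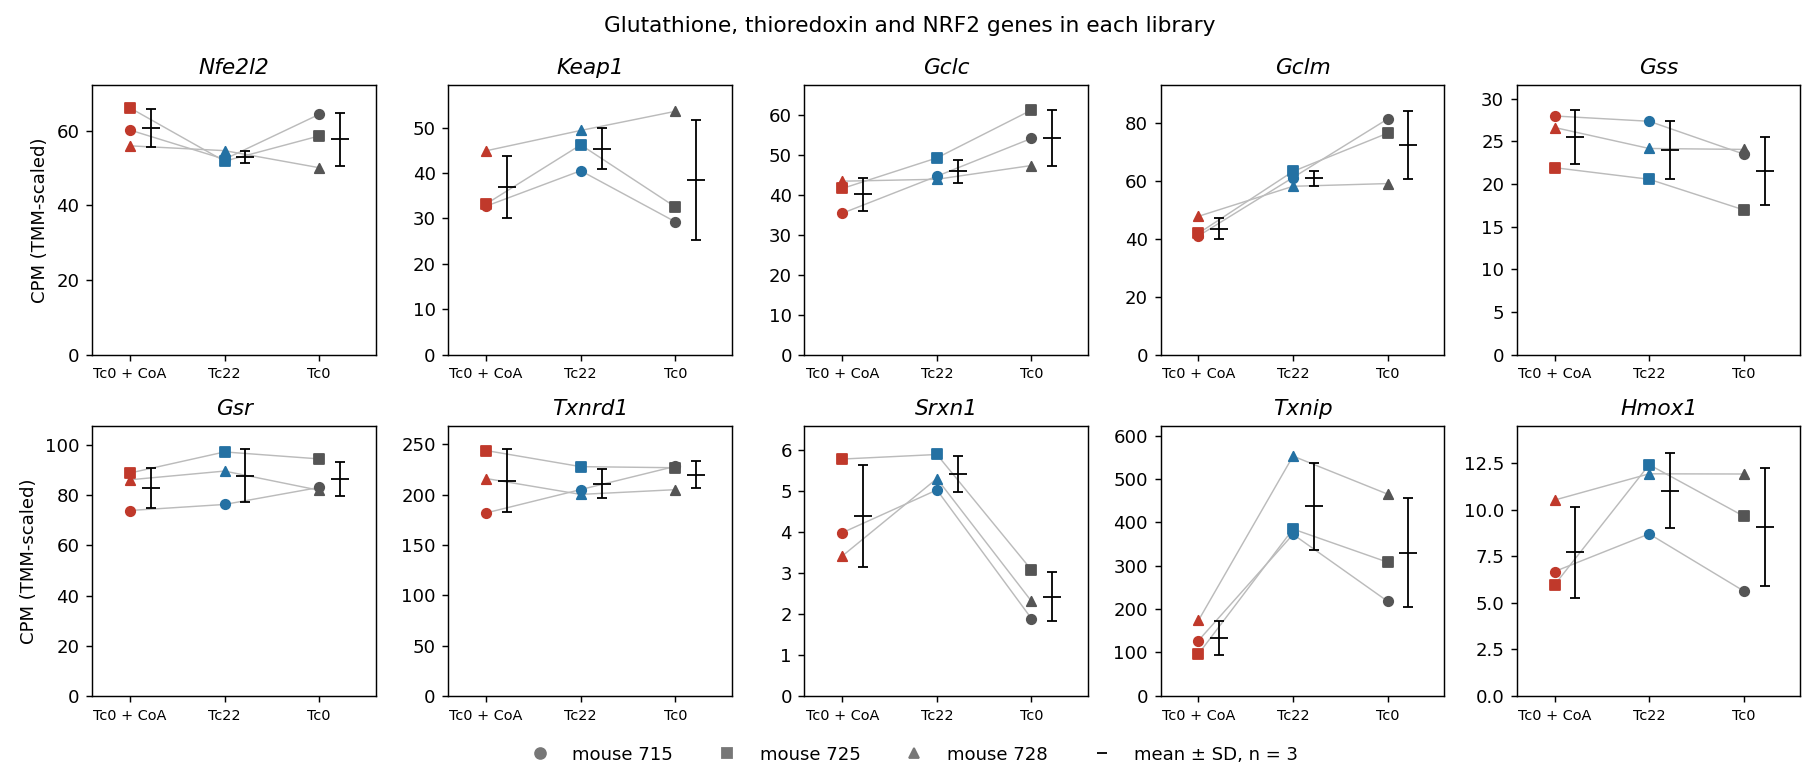
CPM of the 10 genes (y axis, from 0) in CoA-treated Tc0, Tc22 and Tc0 libraries (x axis). Symbols mark the mice, grey lines join the libraries of a mouse, and black bars are the mean ± SD of 3 libraries. Txnip falls between 96.7 and 173.9 CPM in all CoA-treated libraries, below every Tc22 and Tc0 library, while the groups overlap for Gsr and Txnrd1.

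Txnip, Gclm and Gclc were lower and Srxn1 was higher in CoA-treated Tc0 than in Tc0 cells. Srxn1 was also higher in Tc22 than in Tc0 cells, and Txnip and Gclm were higher in Tc22 than in CoA-treated Tc0 cells. By edgeR's quasi-likelihood F test with mouse as a block (adjusted p under 0.05 over 15348 genes), 1 of 10 members rose and 3 fell with CoA, where 12.5% of all genes tested rose and 12.0% fell. With CoA 4 of the 10 and 5850 of all 15348 genes reached an unadjusted p under 0.05. In Tc22 against Tc0 cells 1 member rose and 0 fell, where 2.48% of all genes rose and 1.21% fell. An unadjusted p under 0.05 was reached there by 2 of the 10 and by 3248 of all 15348 genes. DESeq2 called 1 rise and 0 falls among members, and 627 rises and 335 falls among all genes. In Tc22 against CoA-treated Tc0 cells 2 members rose and 0 fell, where 16.0% of all genes rose and 16.0% fell. Here 4 of the 10 and 6653 of all 15348 genes reached an unadjusted p under 0.05. By DESeq2 there were 2 rises and 0 falls among members, and 2337 rises and 2365 falls among all genes. The median log2 fold change of the 10 was -0.06 with CoA, 0.09 in Tc22 against Tc0 and 0.25 in Tc22 against CoA-treated Tc0, beside -0.01, -0.01 and 0.01 over all genes tested. Groups did not overlap for 4 of 10 members with CoA, 1 of 10 in Tc22 against Tc0 and 4 of 10 in Tc22 against CoA-treated Tc0. Over all genes tested the groups did not overlap for 27.8%, 12.5% and 41.9%, and edgeR called 24.5%, 3.68% and 32.0% in either direction. The comparisons share libraries and are not independent of each other.

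**Figure D2:**
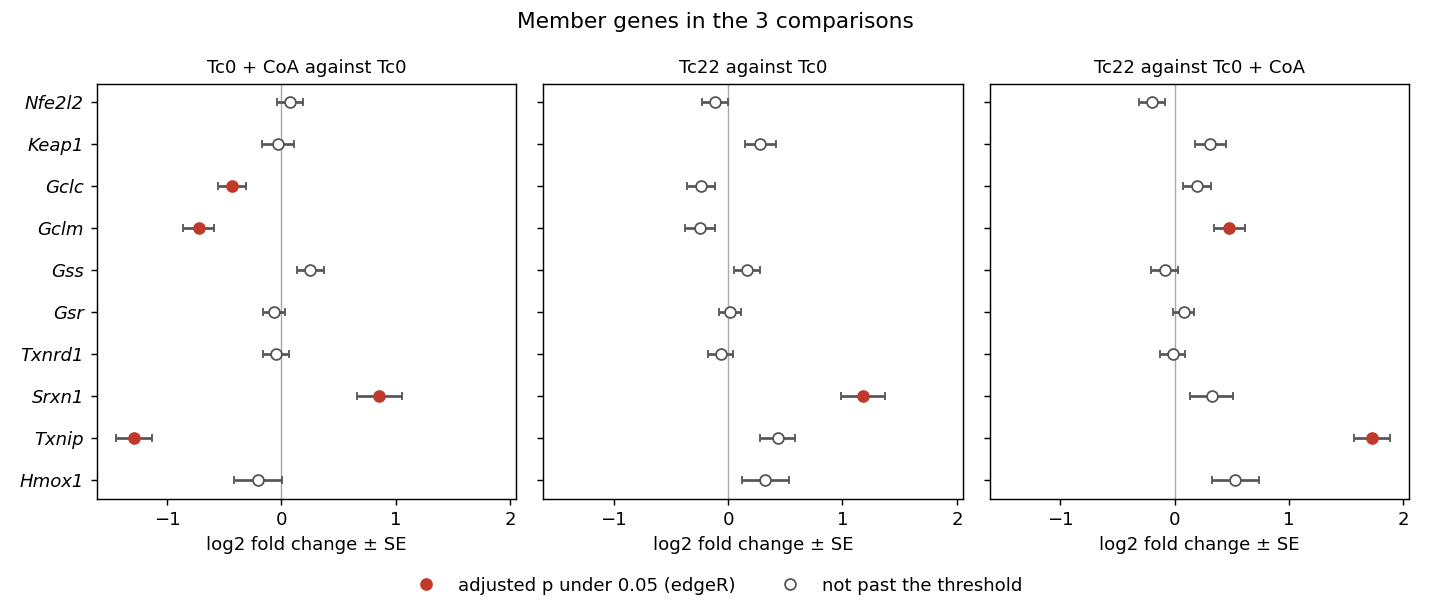
Log2 fold change ± SE (x axis) of each member (y axis) in 3 comparisons, with red points for an adjusted p under 0.05 by edgeR and open points for the others. Txnip lies at -1.29 with CoA and at 1.73 in Tc22 against CoA-treated Tc0, and Srxn1 lies to the right of 0 in all panels.

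Of the 4 members past the threshold somewhere, 3 have an entry in the RefSeq promoter table (GRCm38.p6, 250 bases before to 50 after the start), shown here because these transcripts changed in different directions. Capitals mark matches to the antioxidant response element core TGACNNNGC on either strand, to its form with an AP-1 core, TGAGTCAGC, and to a carbohydrate response element searched as a pair of CACGNG sites 5 bases apart. Through such elements the glucose sensors MondoA and ChREBP are known to drive Txnip. The last pair of motifs was added after the sequences had been read. All sequences run 5′ to 3′ on the plus strand, at chr2:152105274-152105573 for Srxn1, chr3:122245307-122245606 for Gclm and chr3:96557707-96558006 for Txnip.
Srxn1: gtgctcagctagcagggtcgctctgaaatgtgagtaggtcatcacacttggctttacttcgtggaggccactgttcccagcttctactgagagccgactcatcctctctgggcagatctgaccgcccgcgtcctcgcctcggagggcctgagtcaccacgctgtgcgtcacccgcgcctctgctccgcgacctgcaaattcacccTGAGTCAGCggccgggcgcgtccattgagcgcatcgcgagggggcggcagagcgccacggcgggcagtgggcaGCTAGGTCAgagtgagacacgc
Gclm: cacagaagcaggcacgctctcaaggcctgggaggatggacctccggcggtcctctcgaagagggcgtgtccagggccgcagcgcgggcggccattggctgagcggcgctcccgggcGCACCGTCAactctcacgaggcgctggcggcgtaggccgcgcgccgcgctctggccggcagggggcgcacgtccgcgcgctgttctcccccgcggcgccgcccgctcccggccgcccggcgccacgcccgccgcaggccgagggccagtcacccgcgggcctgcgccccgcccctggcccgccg
Txnip: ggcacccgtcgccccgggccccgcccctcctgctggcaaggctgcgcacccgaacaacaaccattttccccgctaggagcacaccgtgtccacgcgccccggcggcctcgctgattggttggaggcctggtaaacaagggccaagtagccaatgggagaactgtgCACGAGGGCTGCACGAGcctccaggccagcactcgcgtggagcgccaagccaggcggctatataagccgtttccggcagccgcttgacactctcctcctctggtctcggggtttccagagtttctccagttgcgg

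The core TGACNNNGC occurred in 12.4% of all 32851 promoter windows and in 4 of the 9 windows of the 7 members with an entry (Srxn1, Gclm, Nfe2l2 and 1 of the windows of Txnrd1). The AP-1 form was found in 0.414% of all windows and, among members, at positions -45 to -37 of Srxn1 from its start. The carbohydrate element was found in 0.0487% of all windows and, among members, at positions -85 to -69 of Txnip. The E box CACGTG was in 7.15% of all windows and in none of the 9. Such matches describe the sequence and do not show that a factor binds there.

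The regulators themselves did not pass the threshold in any comparison. Nfe2l2 (chr2:75675513-75704641, minus strand, GRCm38) had 60.2, 66.1 and 56.0 CPM in CoA-treated Tc0 libraries of mice 715, 725 and 728, 52.4, 51.9 and 54.7 CPM in Tc22 libraries and 64.4, 58.6 and 50.1 CPM in Tc0 libraries. Its log2 fold change was 0.08 with CoA (SE 0.11, adjusted p = 0.657 by edgeR) and -0.12 in Tc22 against Tc0 cells (SE 0.11, adjusted p = 0.574). The Tc22 libraries lay just below all CoA-treated ones, at -0.19 (SE 0.11, adjusted p = 0.221).

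Keap1 (chr9:21229730-21239361, minus strand), the gene of NRF2's inhibitor, had 32.7, 33.2 and 44.9 CPM in CoA-treated Tc0, 40.5, 46.2 and 49.4 CPM in Tc22 and 29.3, 32.6 and 53.6 CPM in Tc0 libraries. All groups overlapped, and the Tc0 library of mouse 728 held the highest value of the 9. Keap1 was higher in Tc22 than in Tc0 cells in 2 of 3 mice (0.28, SE 0.14, adjusted p = 0.268 by edgeR). Without the Tc0 library of mouse 728 that difference was 0.45 with an adjusted p of 0.0353. In Tc22 against CoA-treated Tc0 cells Keap1 stood at 0.31 (SE 0.14, adjusted p = 0.109, higher in 3 of 3 mice). That passed when the Tc0 library of mouse 728 was left out (adjusted p = 0.0365), as it did without the Tc22 library of mouse 728 (0.0420) and with the compared groups alone (0.0495). Gm16754, a gene of the opposite strand whose exons overlap those of Keap1, gave 1091 counts over the 9 libraries beside 10664 for Keap1. Gm16754 was higher in Tc22 than in CoA-treated Tc0 cells (1.15, adjusted p = 0.013 by edgeR). It did not pass with CoA (-0.84, 0.0564) or in Tc22 against Tc0 (0.31, 0.525), and its part in the values of Keap1 was not tested. The strand setting of the authors' counting is not stated in the sources used here, so reads of overlapping genes may be shared.

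Glutathione is made in a pair of steps. Glutamate-cysteine ligase, with a catalytic subunit from Gclc and a modifier subunit from Gclm, joins glutamate to cysteine and limits the rate, and the synthetase encoded by Gss adds glycine. Glutathione reductase, from Gsr, uses NADPH to return oxidised glutathione to its reduced form. With CoA both ligase subunits fell, and Gss and Gsr did not pass the threshold.

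Gclm (chr3:122245557-122270732, plus strand) had 41.0, 41.8 and 47.7 CPM in CoA-treated Tc0, 61.1, 63.2 and 58.1 CPM in Tc22 and 81.3, 76.4 and 59.0 CPM in Tc0 libraries of mice 715, 725 and 728. Every CoA-treated library lay below every library of the other groups, and Tc22 and Tc0 libraries overlapped. Gclm averaged 43.5 ± 3.67 CPM in CoA-treated Tc0 and 72.2 ± 11.7 CPM in Tc0 libraries (SD, n = 3), or -0.72 on the log2 scale (SE 0.13, adjusted p = 0.00663 by edgeR, lower in 3 of 3 mice). This call held in all 15 alternatives run, with adjusted p from 5.47e-05 to 0.0403. Within mice the log2 ratio, on CPM with 0.5 added, was -0.98 in mouse 715, -0.86 in mouse 725 and -0.30 in mouse 728.

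In Tc22 against Tc0 cells Gclm stood at -0.24 (SE 0.13, adjusted p = 0.316 by edgeR), or at -0.39 with an adjusted p of 0.0441 without the Tc0 library of mouse 728. Gclm was higher in Tc22 than in CoA-treated Tc0 cells by 0.48 (SE 0.13, adjusted p = 0.0224, higher in 3 of 3 mice). The rise over CoA-treated cells was lost without the CoA-treated library of mouse 715 or 725 or without any Tc22 library, with adjusted p from 0.0587 to 0.111. Gm17494, on the opposite strand with overlapping exons, moved the other way: it stood at 29.2, 32.2 and 30.6 CPM in CoA-treated Tc0 and at 20.1, 19.4 and 18.5 CPM in Tc0 libraries (0.67, adjusted p = 0.00545). Whether the counting kept the strands of Gclm and Gm17494 apart is not stated in the sources used here, and the part of Gm17494 in the result was not tested.

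Gclc (chr9:77754535-77794485, plus strand) had 35.4, 41.6 and 43.5 CPM in CoA-treated Tc0, 44.7, 49.3 and 43.9 CPM in Tc22 and 54.2, 61.3 and 47.4 CPM in Tc0 libraries. The CoA-treated libraries were the lowest 3 of the 9, and the highest of them was just below the lowest Tc22 library. Gclc averaged 40.2 ± 4.21 CPM in CoA-treated Tc0 and 54.3 ± 6.95 CPM in Tc0 libraries (SD, n = 3), or -0.43 on the log2 scale (SE 0.12, adjusted p = 0.0278 by edgeR, lower in 3 of 3 mice). That call passed in 9 of 15 alternatives. It was lost when the mouse block was dropped (adjusted p = 0.0795) and with the compared groups alone (0.0644). Leaving out the CoA-treated library of mouse 715 (0.0900) or 725 (0.143) or the Tc0 library of mouse 715 (0.0981) or 725 (0.139) also ended the call. In Tc22 cells Gclc stood at -0.24 against Tc0 (SE 0.12, adjusted p = 0.282) and at 0.19 against CoA-treated Tc0 cells (SE 0.12, adjusted p = 0.242).

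The ligase subunit transcripts were compared within libraries as a ratio of CPM, which is not scaled to gene length. The size of the ratio therefore does not tell which transcript is more abundant. Per kilobase of annotated exonic sequence Gclm averaged below Gclc in every group. The means were 6.92 and 10.7 CPM per kb in CoA-treated Tc0, 9.66 and 12.2 in Tc22 and 11.5 and 14.4 in Tc0 libraries. Gclm CPM divided by Gclc CPM was 1.16, 1.01 and 1.10 in CoA-treated Tc0, 1.37, 1.28 and 1.32 in Tc22 and 1.5, 1.25 and 1.25 in Tc0 libraries. The CoA-treated libraries had the lowest 3 ratios of the 9, and Tc22 and Tc0 libraries overlapped. Means were 1.09 ± 0.0762 in CoA-treated Tc0, 1.32 ± 0.0420 in Tc22 and 1.33 ± 0.147 in Tc0 cells (SD, n = 3 each). CoA-treated Tc0 differed from Tc0 by -0.244 (lower in 3 of 3 mice) and Tc22 from CoA-treated Tc0 by 0.237 (higher in 3 of 3 mice). The ratio was chosen after its values were seen, so these differences are a description with no test.

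**Figure D3:**
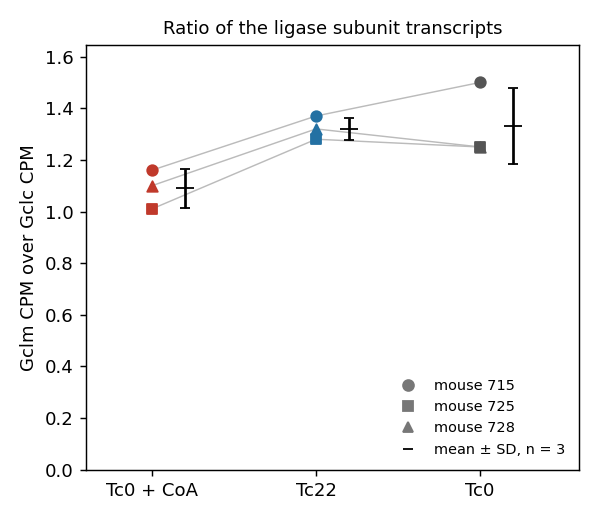
Gclm CPM over Gclc CPM (y axis, from 0) in each library by group (x axis), with symbols for mice, grey lines joining a mouse's libraries and black bars for the mean ± SD of 3. The CoA-treated libraries lie at 1.01 to 1.16 and the Tc22 and Tc0 libraries at 1.25 to 1.5. CPM is not scaled to gene length here.

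Gss (chr2:155563181-155592810, minus strand) was higher with CoA in 3 of 3 mice without passing the threshold, at 27.98, 21.92 and 26.63 CPM in CoA-treated Tc0 and 23.51, 16.97 and 24.06 CPM in Tc0 libraries. Its log2 fold change was 0.25 (SE 0.12, adjusted p = 0.144 by edgeR). Its Tc22 libraries held 27.4, 20.6 and 24.2 CPM (0.17 against Tc0, SE 0.12, adjusted p = 0.430). In every group the library of mouse 725 was the lowest. Acss2, the gene of an acetyl-CoA synthetase on the opposite strand, overlaps its exons and had 13296 counts over the 9 libraries beside 6183 for Gss, so shared reads could matter for Gss. With CoA Acss2 moved the other way from Gss (-0.50, adjusted p = 0.0104 by edgeR, lower in 3 of 3 mice). The part of Acss2 in the values of Gss was not tested.

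Gsr (chr8:33652523-33698163, plus strand) had 73.9, 88.9 and 86.2 CPM in CoA-treated Tc0, 76.3, 97.3 and 89.6 CPM in Tc22 and 83.1, 94.5 and 82.0 CPM in Tc0 libraries. Its log2 fold changes were -0.06 with CoA (SE 0.10, adjusted p = 0.668 by edgeR), 0.02 in Tc22 against Tc0 (SE 0.10, adjusted p = 0.939) and 0.08 in Tc22 against CoA-treated Tc0 (SE 0.10, adjusted p = 0.569). All groups overlapped.

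Thioredoxin reduces disulfides in peroxiredoxins and other proteins. Thioredoxin reductase 1, a selenoenzyme from Txnrd1, recharges it with NADPH. Sulfiredoxin, from Srxn1, rescues peroxiredoxins whose catalytic cysteine has been over-oxidised, and TXNIP binds thioredoxin and also restrains glucose uptake. Of these genes Srxn1 rose and Txnip fell with CoA, and Txnrd1 did not pass the threshold.

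Txnip (chr3:96557957-96561883, plus strand) showed the largest change of the 10 members in both comparisons with CoA-treated cells. It had 127.5, 96.7 and 173.9 CPM in CoA-treated Tc0, 372.3, 384.5 and 552.6 CPM in Tc22 and 218.0, 308.1 and 465.0 CPM in Tc0 libraries of mice 715, 725 and 728. The CoA-treated libraries lay below all others, Tc22 and Tc0 libraries overlapped, and in every group the library of mouse 728 was the highest. Txnip averaged 132.7 ± 38.8 CPM in CoA-treated Tc0 and 330.4 ± 125 CPM in Tc0 libraries (SD, n = 3), or -1.29 on the log2 scale (SE 0.16, adjusted p = 0.00181 by edgeR). It was lower in each of the 3 mice, with log2 ratios of -0.77, -1.67 and -1.42. The call held in all 15 alternatives, with log2 fold changes from -1.49 to -1.13 and adjusted p from 5.36e-13 to 0.0288.

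In Tc22 cells Txnip was higher than in CoA-treated Tc0 cells by 1.73 (SE 0.16, adjusted p = 0.000251 by edgeR, higher in 3 of 3 mice). That call too held in all 15 alternatives (adjusted p from 9.61e-24 to 0.0107). Against Tc0 cells Txnip stood at 0.43 (SE 0.15, adjusted p = 0.162), higher in 3 of 3 mice but past the threshold in 0 of 15 alternatives. Gm15441 overlaps Txnip on the opposite strand and gave 251 counts over the 9 libraries beside 81584 for Txnip.

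The Srxn1 gene (chr2:152105516-152111376, plus strand) was the least abundant member and rose in both comparisons with Tc0. It had 3.99, 5.79 and 3.42 CPM in CoA-treated Tc0, 5.03, 5.90 and 5.31 CPM in Tc22 and 1.89, 3.08 and 2.31 CPM in Tc0 libraries. Neither the CoA-treated nor the Tc22 libraries overlapped the Tc0 libraries. These levels rest on 77 to 160 counts per library in CoA-treated Tc0, 148 to 199 counts in Tc22 and 60 to 84 counts in Tc0 libraries.

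With CoA Srxn1 averaged 4.396 ± 1.24 CPM, against 2.43 ± 0.603 CPM in Tc0 libraries (SD, n = 3), or 0.86 on the log2 scale (SE 0.20, adjusted p = 0.0140 by edgeR, higher in 3 of 3 mice). The call passed in 11 of 15 alternatives. It was lost without the mouse block (adjusted p = 0.0693), and likewise when the CoA-treated library of mouse 725 (0.0809) or the Tc0 library of mouse 715 (0.0519) or 725 (0.0592) was left out. In Tc22 libraries Srxn1 averaged 5.41 ± 0.442 CPM, higher than in Tc0 by 1.18 (SE 0.20, adjusted p = 0.0106, higher in 3 of 3 mice). This call passed in 12 of 15 alternatives and was lost when the block (adjusted p = 0.104) or, for mouse 715, the Tc0 (0.0578) or the Tc22 library (0.0610) was left out. Tc22 and CoA-treated Tc0 cells differed by 0.32 (SE 0.19, adjusted p = 0.219), which did not pass.

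Txnrd1 (chr10:82833951-82897712, plus strand) had 181.8, 243.8 and 216.0 CPM in CoA-treated Tc0, 205.0, 227.8 and 200.2 CPM in Tc22 and 228.1, 226.7 and 204.9 CPM in Tc0 libraries, with all groups overlapping. Its log2 fold changes were -0.05 with CoA (SE 0.11, adjusted p = 0.790 by edgeR), -0.06 in Tc22 against Tc0 (SE 0.11, adjusted p = 0.773) and -0.02 in Tc22 against CoA-treated Tc0 (SE 0.11, adjusted p = 0.928).

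Hmox1 (chr8:75093621-75100589, plus strand) encodes haem oxygenase 1, which breaks haem into biliverdin, iron and carbon monoxide and is abundant in macrophages. It had 6.68, 5.97 and 10.5 CPM in CoA-treated Tc0, 8.70, 12.4 and 11.9 CPM in Tc22 and 5.63, 9.65 and 11.9 CPM in Tc0 libraries, and all groups overlapped. Its log2 fold change was -0.20 with CoA (SE 0.21, adjusted p = 0.506 by edgeR) and 0.33 in Tc22 against Tc0 (SE 0.20, adjusted p = 0.374). In Tc22 against CoA-treated Tc0 cells it was 0.53 (SE 0.21, adjusted p = 0.0752, higher in 3 of 3 mice), with an adjusted p of 0.0486 without the CoA-treated library of mouse 715 and likewise without the Tc22 library of mouse 728.

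The 9 markers of macrophages and monocytes summed to 5.12 to 14.5 CPM in CoA-treated Tc0, 6.22 to 7.19 CPM in Tc22 and 4.50 to 6.58 CPM in Tc0 libraries. Of 4 tested, 2 were higher and 0 lower with CoA, and Tc22 set against CoA-treated Tc0 cells had 1 higher and 3 lower. Over all genes tested 12.5% rose and 12.0% fell with CoA, and 16.0% passed in each direction in Tc22 against CoA-treated Tc0 cells. The marker counts that follow stand beside the same shares. Lyz2 had 1.52 to 7.63 CPM with CoA and 1.01 to 2.33 CPM in Tc0 libraries (1.15, adjusted p = 0.0117 by edgeR), and Cd14 had 0.456 to 1.16 CPM with CoA and 0.0315 to 0.326 CPM in Tc0 libraries (2.24, adjusted p = 0.0134). Adgre1 reached 1.59 CPM with CoA and 0.248 CPM in Tc0 libraries, while C1qa stayed at 0.0723 CPM or less in all 9. Cd68 had 2.58 to 3.42 CPM with CoA and 2.005 to 3.50 CPM in Tc0 libraries (0.02, adjusted p = 0.963). It was the 1 marker higher in Tc22 than in CoA-treated Tc0 cells (0.72, adjusted p = 0.0271). In these bulk libraries fewer cells of a type and less RNA per cell cannot be told apart. B cell markers summed to 10.7 to 11.7 CPM with CoA, 8.36 to 11.1 CPM in Tc22 and 9.10 to 11.8 CPM in Tc0 libraries, most of it from Cd79b, and 1 of 2 tested (Ebf1) was higher with CoA. Those of CD4 T cells summed to 12.2 to 15.9 CPM with CoA, 13.2 to 16.3 CPM in Tc22 and 8.67 to 14.7 CPM in Tc0 libraries, while Cd4 itself stayed at 1.38 CPM or less and 1 of 4 (Cd40lg) was higher with CoA. In Tc22 against Tc0 cells, where 2.48% of all genes rose, 1 of the 4 (Cd4) was higher (1.59, adjusted p = 0.0484 by edgeR). Dendritic cell markers summed to 5.46 to 9.37 CPM with CoA, 4.36 to 5.85 CPM in Tc22 and 3.73 to 5.01 CPM in Tc0 libraries, with no overlap between CoA-treated and Tc0 libraries. Most of these sums came from Zbtb46, at 4.66 to 7.56 CPM with CoA and 2.15 to 3.97 CPM in Tc0 libraries. Of 4 tested, Zbtb46 was higher with CoA (1.06, adjusted p = 0.0139 by edgeR). The others did not pass: Flt3 at 0.72 (adjusted p = 0.403), Itgax at 0.35 (0.486) and Xcr1 at -0.35 (0.61). Granulocyte and mast cell markers summed to 1.18 to 2.495 CPM with CoA, 0.0340 to 0.622 CPM in Tc22 and 0.220 to 1.07 CPM in Tc0 libraries, also with no overlap between CoA-treated and Tc0 libraries (Cpa3 1.49, adjusted p = 0.0542). Natural killer cell and erythroid markers reached 1.39 and 0.700 CPM in their highest library. The part of any of these cells in the levels of the members was not tested.

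Per kilobase of annotated exonic sequence (GENCODE M21) Txnip ranked first in every group, at 42.5 ± 12.4 CPM per kb in CoA-treated Tc0, 139.8 ± 32.3 CPM per kb in Tc22 and 105.8 ± 40.0 CPM per kb in Tc0 libraries (SD, n = 3 each). In the CoA-treated libraries it overlapped the next gene. Gsr and Txnrd1 followed at levels within each other's spread, with 30.1 ± 2.89 and 30.2 ± 4.38 CPM per kb in CoA-treated Tc0, 31.9 ± 3.85 and 29.8 ± 2.08 CPM per kb in Tc22 and 31.4 ± 2.51 and 31.0 ± 1.84 CPM per kb in Tc0 libraries (SD, n = 3 each). Nfe2l2, Gclc, Gclm and Keap1 lay between 6.92 and 16.0 CPM per kb, and Hmox1 and Gss between 3.64 and 6.29 CPM per kb. Srxn1 ranked last, at 1.56 ± 0.438 CPM per kb in CoA-treated Tc0, 1.92 ± 0.157 CPM per kb in Tc22 and 0.861 ± 0.214 CPM per kb in Tc0 libraries. In Tc0 cells Nfe2l2 and Gclc were neighbours within their spread, at 15.2 ± 1.89 and 14.4 ± 1.84 CPM per kb.

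Genes whose centred log2 CPM over the 9 libraries lay closest to Txnip, Gclm or Srxn1, by root mean square difference among 9287 candidates, were the following. Txnip was closest to H2afv (0.16), Nipal3 (0.176) and Plpp2 (0.178), with an SD of its own of 0.866. Gclm was closest to Utp14b (0.0933), Acsl3 (0.109) and Hspa4l (0.117), beside an SD of 0.345. Srxn1 was closest to Srgn (0.22), Satb1 (0.221) and Nfkbie (0.253), beside an SD of 0.516. All values are in log2 units and describe likeness of pattern alone.

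**Figure D4:**
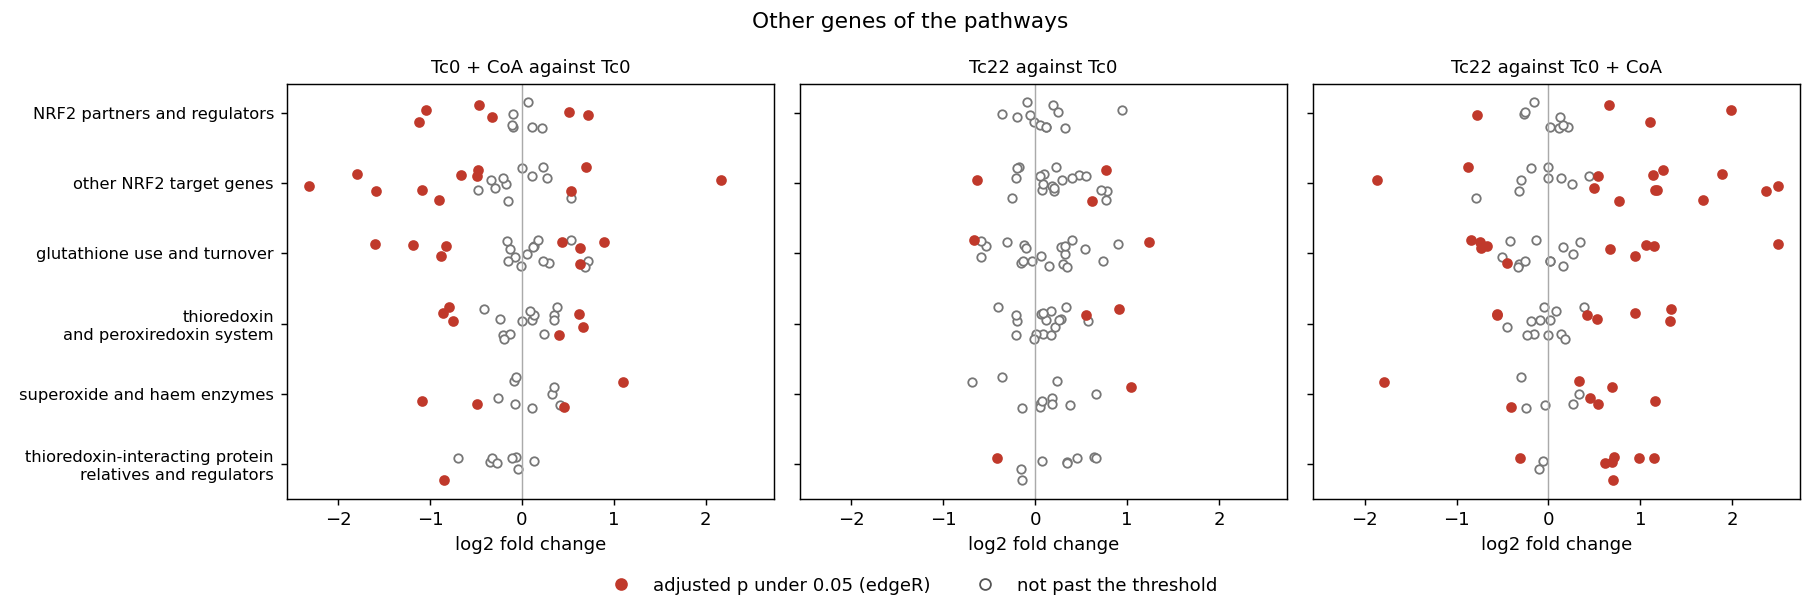
Log2 fold change (x axis) of other genes of these pathways by list (y axis), in 3 comparisons, with each point a gene, red for an adjusted p under 0.05 by edgeR and open otherwise. Points of a list are spread vertically at random. With CoA the most distant points to either side belong to the NRF2 targets, Nqo1 at -2.32 and Slc7a11 at 2.17.

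Other NRF2 target genes moved both ways with CoA: 3 of 22 tested rose and 8 fell, with a median log2 fold change of -0.25 (1 and 2 without the mouse block). Over all 15348 genes tested 12.5% rose and 12.0% fell with CoA. These were 1915 and 1848 genes, or 800 and 662 without the block. The counts with CoA of each list that follows stand beside these shares. Nqo1, the quinone reductase often used as a readout of NRF2, averaged 1.34 CPM in CoA-treated Tc0 and 6.52 CPM in Tc0 cells, at -2.32 on the log2 scale (SE 0.23, adjusted p = 0.000704 by edgeR). Slc7a11, the cystine importer that supplies glutathione synthesis, averaged 8.62 CPM in CoA-treated Tc0 and 1.996 CPM in Tc0 cells, at 2.17 on that scale (SE 0.22, adjusted p = 0.000716). Both calls held in all 15 alternatives. Slc48a1, a haem transporter, fell (-0.66, SE 0.12, adjusted p = 0.00663, or 0.0736 without the block).

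Among genes of glutathione use and turnover 4 of 22 rose and 4 fell with CoA (median 0.13, with 1 and 3 without the block, and 2 falls without the Tc0 library of mouse 728). Lancl1, which encodes a glutathione-binding protein (-0.82, SE 0.12, adjusted p = 0.00266 by edgeR), and Glrx, the gene of glutaredoxin (-1.18, SE 0.19, adjusted p = 0.00390), fell, and the glutathione transferase gene Gsto1 rose (0.64, SE 0.12, adjusted p = 0.00621). In the thioredoxin and peroxiredoxin list 3 of 19 rose and 3 fell (median 0.09, with 0 and 3 without the block). Sesn1 fell (-0.79, SE 0.15, adjusted p = 0.00716), as did Sesn3 (-0.86, SE 0.19, adjusted p = 0.0115), while Sesn2, of the same family of stress-inducible genes, rose (0.62, SE 0.18, adjusted p = 0.0294). Prdx4, the peroxiredoxin of the endoplasmic reticulum, fell by 0.75 (SE 0.17, adjusted p = 0.0120). Sesn3 was lost without the CoA-treated library of mouse 728 (0.0570) or the Tc0 library of mouse 725 (0.0620), and Prdx4 without the CoA-treated library of mouse 725 (0.0634). The rise of Sesn2 was lost without the block, without the CoA-treated library of mouse 725 or 728, and without the Tc0 library of mouse 725. In each of these runs 0 genes of the thioredoxin list rose.

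Of NRF2 partners and regulators 2 of 12 rose and 4 fell with CoA (median -0.10, with 0 and 0 without the block). Bach1, whose product competes with NRF2 for its elements, fell (-1.12, SE 0.25, adjusted p = 0.0129 by edgeR), but not without the block (0.0524) or the Tc0 library of mouse 725 (0.0630). Sqstm1, the autophagy receptor p62 that binds KEAP1, fell (-0.46, SE 0.12, adjusted p = 0.0188) and Mafk, a small MAF partner, rose (0.72, SE 0.18, adjusted p = 0.0206). In the superoxide and haem list 2 of 12 rose and 2 fell (median 0.02, with 1 and 0 without the block, and 5 rises without the Tc0 library of mouse 728). The genes that fell, Cat and Blvrb, are also in the list of other NRF2 targets and are counted among its falls. Cat, catalase, fell (-0.49, SE 0.12, adjusted p = 0.0158), and Blvra, biliverdin reductase, rose (0.46, SE 0.12, adjusted p = 0.0196). The calls of Sqstm1, Mafk, Cat and Blvra were each lost without the CoA-treated library of mouse 725 or 728 or the Tc0 library of mouse 725 (adjusted p from 0.0655 to 0.124), and those of the first 3 also without the block (0.0607 to 0.217). Blvra was lost with the compared groups alone (0.0549).

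Cybb, the NADPH oxidase subunit of phagocytes, rose with CoA (1.10, SE 0.30, adjusted p = 0.0271 by edgeR). It was lost without the libraries of mouse 715 or 725 in either group (0.0640 to 0.158) and without the block (0.293). Of the 4 macrophage markers tested, 2 rose as well (Lyz2 and Cd14), while Cd68 did not pass (0.02, adjusted p = 0.963). The part of such cells in the result for Cybb was not tested. Of the relatives and regulators of Txnip 0 of 9 rose and 1 fell (median -0.27). The member called, the arrestin domain gene Arrdc3, fell (-0.84, SE 0.19, adjusted p = 0.0132), with 0.0507 without the CoA-treated and 0.0559 without the Tc0 library of mouse 725. Arrdc4, another arrestin domain gene, stood at -0.69 and did not pass (adjusted p = 0.0611). Nor did Arrdc1 at -0.35 (0.172), Arrdc2 at -0.07 (0.784), Mlxip at -0.05 (0.821) and Mlx at 0.13 (0.368).

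In Tc22 against Tc0 cells, where 3.68% of all genes passed, the lists had 0 to 3 genes past the threshold each. Of other NRF2 targets 2 of 22 rose and 1 fell (median 0.20, with 5 and 1 by DESeq2, and 1 and 0 without the block). Fth1, ferritin heavy chain, rose (0.77, SE 0.10, adjusted p = 0.00433 by edgeR) in all 15 alternatives, and Abcc1, a transporter of glutathione conjugates, rose (0.61, SE 0.10, adjusted p = 0.00982). Abcc1 was lost without the block (0.0909) and without mouse 725's library of Tc0 (0.0724) or Tc22 cells (0.0849). Of the genes of glutathione use 1 of 22 rose and 1 fell (median 0.10, with 4 and 3 without the Tc0 library of mouse 728). The riser Gstt2, a glutathione transferase, stood at 1.24 (SE 0.17, adjusted p = 0.00455, or 0.0811 without the block).

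Of the superoxide and haem genes 1 of 12 rose and 0 fell in Tc22 against Tc0 cells (median 0.13, 2 and 0 by DESeq2). Ncf4, an NADPH oxidase organiser, rose (1.04, SE 0.17, adjusted p = 0.0111 by edgeR) and was lost without the block (0.160). It was lost, too, when the Tc0 library of mouse 715 (0.0570) or 725 (0.0714) or the Tc22 library of mouse 725 (0.0753) was left out. In the thioredoxin list 2 of 19 rose and 0 fell (median 0.12, 3 and 0 by DESeq2). Of Txnip relatives and regulators 0 of 9 rose and 1 fell (median 0.35, 2 and 1 by DESeq2). Of NRF2 partners 0 of 12 passed in either direction, with 1 by DESeq2 (median 0.08). An unadjusted p under 0.05 was reached by 3 of the 12, and by 3248 of all 15348 genes tested. Maff, a small MAF gene, came closest to the threshold at 0.94 (SE 0.31, adjusted p = 0.135). Maff passed in 4 of 15 alternatives, with the compared groups alone (0.0488), no low-count filter (0.0178), DESeq2 (0.0387) and the CoA-treated library of mouse 715 left out (0.0286). Calls of Ephx1 (-0.64, adjusted p = 0.0341), Ggct (-0.66, 0.0347), Prdx2 (0.55, 0.0232), Prdx5 (0.92, 0.0398) and Foxo1 (-0.42, 0.0475) were each lost without the CoA-treated library of mouse 728, or without the Tc0 or Tc22 library of mouse 715 or 725. Each was lost without the block as well (0.124 to 0.697), Ggct (0.0550) and Foxo1 (0.0874) with the compared groups alone, and Prdx5 (0.0523) and Foxo1 (0.0541) with library size alone. Those of Ephx1, Ggct and Foxo1 were lost without the Tc22 library of mouse 728 too, and that of Foxo1 without the CoA-treated library of mouse 725 (adjusted p from 0.0522 to 0.295 over these removals).

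Between Tc22 and CoA-treated Tc0 cells 11 of 22 other NRF2 targets were higher in Tc22 and 2 lower (median 0.47), where 16.0% of all genes passed in each direction. The lower ones were Slc7a11 (-1.87) and Abcc4 (-0.88), a transporter. Fth1 (1.25, SE 0.11, adjusted p = 0.000203 by edgeR), Nqo1 (2.5, SE 0.23, adjusted p = 0.000253) and Slc48a1 (1.14, SE 0.12, adjusted p = 0.000452) were higher in all 15 alternatives. Of Txnip relatives and regulators 6 of 9 were higher and 1 lower (median 0.70, with 2 and 0 without the block). Arrdc4 stood at 1.15 (SE 0.24, adjusted p = 0.00620), the glucose transporter gene Slc2a1 at 0.98 (SE 0.21, adjusted p = 0.00719, or 0.176 without the block) and Arrdc2 at 0.71 (SE 0.15, adjusted p = 0.00740, or 0.0833 without the block and 0.0512 without the Tc22 library of mouse 715).

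Among NRF2 partners Tc22 had 3 of 12 higher and 1 lower against CoA-treated Tc0 cells (median 0.12). Maff was among the higher (1.99, SE 0.33, adjusted p = 0.00261 by edgeR). Sqstm1 stood at 0.66 (adjusted p = 0.00320, or 0.0893 without the block) and Bach1 at 1.10 (adjusted p = 0.00965, or 0.0537 without the Tc22 library of mouse 725). In glutathione use 5 of 22 were higher and 5 lower (median -0.06, with 3 and 3 without the block). Lancl1 was higher (1.15, SE 0.12, adjusted p = 0.000363), as was Ggt1, which starts the breakdown of extracellular glutathione (2.5, SE 0.37, adjusted p = 0.00156, or 0.0566 without the block), and Gsto1 was lower (-0.74, SE 0.12, adjusted p = 0.00208). The thioredoxin list had 5 of 19 higher and 2 lower (median 0.02, with 2 and 1 without the block), and Prdx4 (1.32, adjusted p = 0.000875), Prdx5 (1.33, adjusted p = 0.00203, or 0.112 without the block) and Sesn3 (0.94, adjusted p = 0.00537) were higher. The superoxide and haem list had 5 of 12 higher and 2 lower (median 0.30, with 2 and 0 without the block). Among the higher, Cat and Blvrb are also counted among the higher genes of the other NRF2 targets. Sod1, the cytosolic superoxide dismutase, was higher (0.45, SE 0.09, adjusted p = 0.00581), Cat was higher (0.54, adjusted p = 0.00739, or 0.0554 without the Tc22 library of mouse 725) and Cybb was lower (-1.79, SE 0.32, adjusted p = 0.00325, or 0.0927 without the block).

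Single libraries weighed on the counts of these lists, as on calls over all genes tested. With CoA, 1915 genes rose and 1848 fell with every library kept. Dropping the CoA-treated library of mouse 725 gave 756 and 569, and dropping its Tc0 library 656 and 504. With mouse 728's CoA-treated library dropped there were 815 and 670. In Tc22 against CoA-treated Tc0 cells, 2456 and 2457 became 1148 and 1037 with mouse 725's Tc22 library dropped. Whether the lists lost more calls than other genes was not tested. With CoA, rises and falls without the CoA-treated library of mouse 725 numbered 0 and 1 for NRF2 partners, 2 and 2 for other targets, 3 and 2 for glutathione use, 0 and 2 for thioredoxin, 0 and 0 for superoxide and haem, and 0 and 0 for Txnip relatives. With the Tc0 library of mouse 725 left out they were 0 and 0, 2 and 3, 2 and 3, 0 and 2, 0 and 0, and 0 and 0 in the same order, and with the CoA-treated library of mouse 728 left out 0 and 1, 2 and 4, 3 and 2, 0 and 2, 1 and 0, and 0 and 1. In Tc22 against Tc0 cells, leaving out the Tc0 library of mouse 728 gave 0 and 1, 6 and 3, 4 and 3, 2 and 2, 2 and 0, and 3 and 1. Leaving out the Tc0 library of mouse 725 there gave 0 and 0, 1 and 0, 1 and 0, 0 and 0, 0 and 0, and 0 and 0, as did the Tc22 library of mouse 725. Over all genes tested, 380 rises and 185 falls became 148 and 59 in the former run and 148 and 53 in the latter. They became 1555 and 1114 with mouse 728's Tc0 library dropped. In Tc22 against CoA-treated Tc0 cells, leaving out the Tc22 library of mouse 725 gave 2 and 1, 7 and 2, 4 and 3, 3 and 1, 1 and 1, and 3 and 0. The counts without the CoA-treated library of mouse 725 were 3 and 0, 9 and 2, 4 and 4, 3 and 1, 2 and 1, and 3 and 0, and those without the CoA-treated library of mouse 728 were 3 and 1, 9 and 2, 4 and 3, 3 and 0, 2 and 1, and 3 and 0.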

How the data were processed

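Total RNA of 9 samples was depleted of ribosomal RNA and sequenced as stranded paired-end libraries, per the labels' protocols. The authors deposited whole-number counts per Ensembl gene in 1 table and again as 9 single files, which were identical to it. Per the submitters' processing notes, which give no roles, the tools were RSEM 1.3.0 and STAR 2.5.2 and the builds GRCm38 and mm10. Annotation release, strand setting and filters are not stated in the sources used here. Symbols and positions came from GENCODE M21 (GRCm38), which matched 53650 of 53679 IDs.

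Groups and mice were read from the sample titles. The design text says that every mouse gave all populations, so mouse was a block. Deviations from the group means had correlations of 0.073 to 0.720 between libraries of the same mouse (9 pairs). Between libraries of different mice and groups they were -0.646 to 0.286 (18 pairs). The ranges overlap, so the pairing rests on the design text. After filterByExpr (15348 genes kept) and TMM scaling, counts were fitted over the 9 libraries with edgeR 4.0.16 in R 4.3.3 by the quasi-likelihood F test, leaving 4 residual degrees of freedom (biological coefficient of variation 0.158). Benjamini-Hochberg adjustment ran over the whole table of tested genes, and calls needed an adjusted p under 0.05. The SE printed is approximate: the size of the log2 fold change over the root of F. Alternatives were no block, the compared groups alone, RLE size factors, library size alone, no low-count filter, DESeq2 1.42.0 and leaving out each library. P-values rest on how differences within a mouse varied over 3 mice, with the groups sharing a spread. The quasi-likelihood fit also draws each gene's spread towards that of the other genes tested.

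The members and lists were chosen with earlier results of these data known. Some genes are in more than 1 list, so the counts of the lists are not independent. Cat and Blvrb are in the lists of other NRF2 targets and of superoxide and haem genes. Prdx1 and Txn1 are in those of other NRF2 targets and of thioredoxin genes. Named genes were all members and, per list and comparison, up to 3 genes past the threshold by smallest p, or the 1 with the smallest p. Genes with overlapping exons, single marker genes, Sesn2, Blvrb and the lower NRF2 targets of Tc22 cells were added after their values were seen. So were Arrdc1, Arrdc2, Arrdc4, Mlxip and Mlx with CoA. Genes alike in pattern had at least 5 CPM on average. The genes alike to Gclc are not reported here.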

Additional observations from a re-analysis of the deposited data

How the results depend on the processing

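Over the 15 alternatives Txnip and Gclm with CoA, and Txnip in Tc22 against CoA-treated Tc0, kept their direction and call. Without the replicate block, members that rose numbered 0 with CoA and 0 in Tc22 against Tc0 (1 and 1 with it), Gclc with CoA was lost as well, and no other member's call changed. All genes called then numbered 800 higher and 662 lower with CoA (1915 and 1848 with the block), 87 and 33 in Tc22 against Tc0 (380 and 185), and 1017 and 1080 in Tc22 against CoA-treated Tc0 (2456 and 2457). In Tc22 against Tc0, DESeq2 called 627 and 335 genes, 831 and 444 were called without the low-count filter, and 1555 and 1114 when the Tc0 library of mouse 728 was left out. Leaving out each library in turn gave 0 to 1 members higher with CoA, 0 to 2 higher and 0 to 1 lower in Tc22 against Tc0, and 1 to 3 higher in Tc22 against CoA-treated Tc0. It also turned the sign of log2 fold changes near 0 that did not pass. With CoA these ran from -0.0024 to 0.17 for Nfe2l2, -0.12 to 0.14 for Keap1, -0.11 to 0.088 for Txnrd1 and -0.38 to 0.027 for Hmox1. In Tc22 against Tc0 they ran from -0.044 to 0.079 for Gsr and -0.12 to 0.036 for Txnrd1, and in Tc22 against CoA-treated Tc0 from -0.13 to 0.044 for Txnrd1. The cause of these changes was not tested. Srxn1 rests on 60 to 199 counts per library, the fewest of the 10 members, so counting error weighs most there.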
